A study of Mus musculus with 8 samples.

Results

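Psca and 6 other genes of the Ly6 family (Ly6a, Ly6d, Ly6e, Ly6g6c, Lypd8 and Slurp1) were followed in the epithelial cells of the mouse colon. These 7 genes, of 24346 gene symbols in the tables, were taken by symbol. They were chosen by a reading of the measured differences between genotypes: Psca had passed the threshold in the B3galt5D116A and B3gnt7-/- comparisons and Ly6g6c had come near it in B3galt5D116A. Their differences between genotypes are therefore given as a description, without p-values, and support nothing further. All mice were C57BL/6J and untreated, and the 4 genotypes were wild-type, St6galnac6-/- (a line lacking a sialyltransferase), B3galt5D116A (a line with an amino acid substitution in a galactosyltransferase) and B3gnt7-/- (a line lacking an N-acetylglucosaminyltransferase). Each genotype had 1 male and 1 female RNA-seq library, 8 in all. Age, the number of animals behind a library and any batch are not given in the sources used here, so differences measure the spread between these libraries, and a batch and a genotype cannot be told apart. The values are FPKM, a unit that by its name sets fragment numbers against transcript length and mapped fragments, and the scaling used between libraries is not given in the sources used here.

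Ly6 family proteins share a small cysteine-rich domain. Most are held on the outer face of the plasma membrane by a glycosylphosphatidylinositol (GPI) anchor, and a few are secreted. Several, among them Psca, Slurp1 and Lynx1, are known to bind or modulate nicotinic acetylcholine receptors. In the colon the best known member is Lypd8, a heavily N-glycosylated protein of surface colonocytes that is shed into the lumen and binds the flagella of bacteria. Ly6a, the stem cell antigen of mouse haematopoiesis, also marks regenerating, fetal-like intestinal epithelium, and both Ly6a and Ly6e are induced by interferon.

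FPKM sums ran from 518482 to 639537 per library. The tables hold no counts. The ratio most often shared by values under 0.15 FPKM gave relative depths of 1.05 to 1.45 in the other 7 libraries, with the wild-type male library as 1. Since the scaling between libraries is not given, these ratios need not equal sequencing depth, and the part of depth in the Psca values was not tested. Epithelial markers summed to 10500 to 13940 FPKM in each library, led by Krt8 and Krt19. The targeted transcripts were lower but present in both knockout lines. St6galnac6 had 218 (male) and 232 (female) FPKM in its knockout, 368 and 343 in wild-type, and 363 to 495 in the other mutants. B3gnt7 had 68.9 (male) and 142 (female) FPKM in its knockout, 215 and 189.8 in wild-type, and 154 to 266 in the other mutants. B3galt5 had 133 (male) and 93.1 (female) FPKM in its mutant line and 117 and 105 in wild-type, which does not check a substitution. Which exons were deleted is not given in the sources used here.

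Promoter sequence was at hand for 2 of the 7 genes, Lypd8, the most abundant, and Ly6g6c, the member at a higher level in every mutant library. Both are shown because sequence was at hand for no other member, and a link between these letters and the levels was not tested. Each run is the 250 bases before the RefSeq start on build GRCm38.p6, plus strand, for Lypd8 at chr11:58378782-58379031 and for Ly6g6c at chr17:35067075-35067324, with a TATAA match in capitals.
Lypd8: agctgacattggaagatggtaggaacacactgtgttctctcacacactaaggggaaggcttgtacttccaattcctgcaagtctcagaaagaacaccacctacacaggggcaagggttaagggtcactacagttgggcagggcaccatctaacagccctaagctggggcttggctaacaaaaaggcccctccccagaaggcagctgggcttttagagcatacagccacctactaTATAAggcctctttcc
Ly6g6c: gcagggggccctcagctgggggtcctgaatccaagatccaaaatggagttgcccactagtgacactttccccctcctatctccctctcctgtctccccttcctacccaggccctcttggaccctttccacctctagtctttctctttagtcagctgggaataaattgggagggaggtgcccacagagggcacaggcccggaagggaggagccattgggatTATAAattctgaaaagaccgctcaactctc
The TATAA letters began 16 bases before the RefSeq start of Lypd8 and 30 bases before that of Ly6g6c, where the match on the other strand overlapped the same site. The GENCODE M21 starts used for positions below differ, at 58379043 for Lypd8 and 35065388 for Ly6g6c. The Ly6g6c window thus lies within its GENCODE gene. TATAA, searched on both strands, occurred in 22.8% of the 32851 mouse windows of this length, and a match describes the letters, not a bound site.

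Psca, the prostate stem cell antigen, was present in 2 genotypes and close to 0 in the other two. Its level was 10.1 FPKM in the male and 7.20 FPKM in the female wild-type library (8.65 ± 2.05 FPKM, SD, n = 2). The St6galnac6-/- libraries held 5.97 and 6.27 FPKM (6.12 ± 0.211 FPKM, SD, n = 2), below both wild-type libraries, with a gap to the lower of them that was smaller than the wild-type SD. In B3galt5D116A the male library held 0.326 FPKM and the female library was listed at 0. In B3gnt7-/- the male library held 0.112 FPKM and the female library was again listed at 0. These 4 libraries overlapped each other and lay far below the other 4. The male B3galt5D116A and B3gnt7-/- values were 3.23% and 1.11% of the male wild-type value. A value of 0 in such tables can also be an estimate that failed, and values this low rest on few fragments.

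On the log2(FPKM + 1) scale, which understates differences at low levels, Psca fell by 3.05 (SE 0.19) in B3galt5D116A and by 3.18 (SE 0.19) in B3gnt7-/-. In St6galnac6-/- the difference was -0.42 (SE 0.19). Each SE in this report is moderated by limma, which draws the spread of a gene toward that of genes at a like level. In the limma fit across all tested genes, Psca was the 1 member of 6 tested that passed an adjusted p of 0.05 in B3galt5D116A, where 0.0780% of all 11537 tested genes passed, and the 1 member in B3gnt7-/-, where 0.0520% passed. No member passed in St6galnac6-/-, where 0.0867% of all genes did. These counts follow from how the genes were chosen. Leaving out the wild-type male library gave log2 differences of -2.92 and -3.04 in B3galt5D116A and B3gnt7-/-, leaving out the wild-type female library gave -3.19 and -3.31, and Psca then passed in neither. It also did not pass in B3galt5D116A without the filter on low genes. All 3 comparisons share the wild-type libraries.

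**Figure D1:**
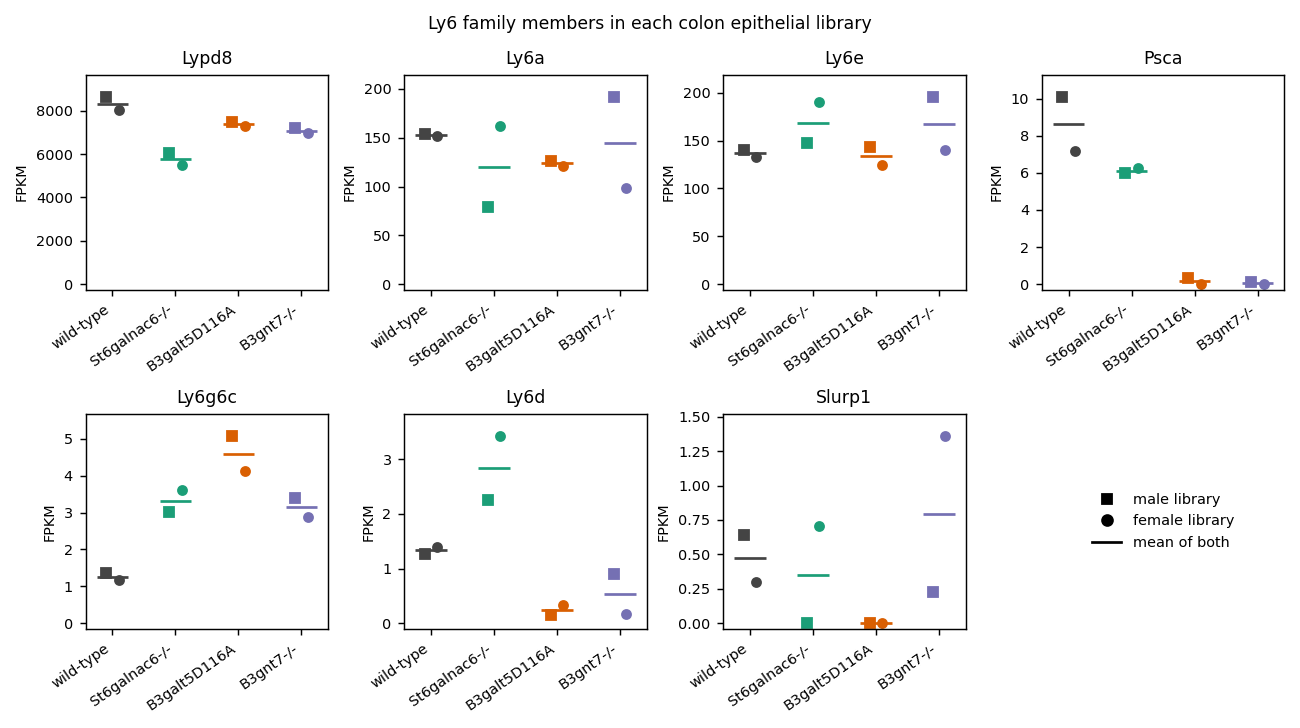
FPKM (linear axes from 0, one scale per gene) of each of the 7 genes by genotype, with squares for male and circles for female libraries and a line for the mean of both. Psca sits between 5.97 and 10.1 FPKM in the 4 wild-type and St6galnac6-/- libraries and at 0 to 0.326 FPKM in the other 4, and Ly6g6c is lowest in the 2 wild-type libraries.

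Psca is known from prostate, bladder and stomach epithelium, so markers of other epithelia were read beside it. The 14 squamous markers summed to 240 and 178 FPKM in wild-type, 94.8 and 91.3 in St6galnac6-/-, 139 and 167 in B3galt5D116A, and 140.1 and 43.8 in B3gnt7-/-, so both wild-type libraries stood above every mutant library. Nearly all of this was Sprr1a, a cornified envelope protein also made in gut, at 39.4 to 235 FPKM. Krt5, Trp63, Krtdap and Calm4 were at 0 in all 8 libraries, and the part of the other squamous markers in the Psca values was not tested. The 5 urothelial markers, led by Upk1a, summed to 15.13 (male) and 12.68 (female) FPKM in the St6galnac6-/- libraries. The genotypes of the other 6 libraries overlapped, from 15.16 FPKM in the B3galt5D116A female library, nearly the same as the St6galnac6-/- male value. The highest was 19.92 FPKM in the B3gnt7-/- female library, where Upk3b was at 6.12 FPKM. That library also had the highest fibroblast and muscle marker sum, 33.07 FPKM. Its Msln level was 6.65 FPKM, against 0.615 to 1.35 FPKM in the other libraries. The part of cells other than urothelium in the Upk3b value was not tested. The 4 stomach markers summed to at most 0.284 FPKM. In bulk RNA, fewer cells that make a transcript and less transcript per cell cannot be told apart.

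Ly6d, a surface protein of keratinocytes and early lymphoid cells encoded close to Psca, was low everywhere. In FPKM, wild-type held 1.27 (male) and 1.40 (female), and St6galnac6-/- held 2.26 and 3.42. The B3galt5D116A libraries held 0.145 and 0.335 and the B3gnt7-/- libraries 0.902 and 0.179. Both St6galnac6-/- libraries thus lay above wild-type and all 4 libraries of the other two mutants below it. The log2 differences were 0.70, -0.92 and -0.64 for St6galnac6-/-, B3galt5D116A and B3gnt7-/- (SE 0.29 each). The B3gnt7-/- value was -0.17 without its female library and -1.11 without its male library.

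Slurp1, a secreted Ly6 protein of skin that modulates nicotinic receptors, averaged below 1 FPKM and was not tested. In FPKM, its male and female levels were 0.639 and 0.304 for wild-type, 0 and 0.705 for St6galnac6-/-, 0 and 0 for B3galt5D116A, and 0.228 and 1.36 for B3gnt7-/-. Slurp1 shares 322 bases with Them6 on the opposite strand, and since the strand setting of the counting is not given in the sources used here, reads of the 2 genes cannot be told apart there. The nicotinic receptor subunits that these ligands are known to act on were mostly low. Of 16 subunits, 6 were listed at 0 in all libraries, 13 were under 0.5 FPKM in every library, and only Chrnb4 reached the tested range, at 2.243 to 4.003 FPKM.

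Lypd8 was by far the most abundant Ly6 transcript. It ranked first or second among all genes in every library and made up 1.002% to 1.409% of the FPKM sum. Wild-type held 8637 FPKM in the male and 8015 FPKM in the female library, and St6galnac6-/- held 6032 and 5513 FPKM. B3galt5D116A held 7494 and 7285 FPKM and B3gnt7-/- held 7189.9 and 6983 FPKM. The 4 genotypes did not overlap, in the order wild-type, B3galt5D116A, B3gnt7-/-, St6galnac6-/-, although the 2 middle ones were separated by less than the SD within either. Set against wild-type of matched sex, St6galnac6-/- stood at 69.8% (male) and 68.8% (female), and the other mutants at 83.2% to 90.9%. The log2 differences were -0.53, -0.17 and -0.23 (moderated SE 0.21 each) for St6galnac6-/-, B3galt5D116A and B3gnt7-/-. The residual SD of Lypd8 itself was 0.032, so most of this SE came from the moderation. After quantile normalization, which gives the highest genes of each library the same values, they were -0.18, -0.36 and -0.18. As Lypd8 ranked first or second, it could then take only 2 values, so these differences reflect its rank and do not measure the order of its levels.

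The 29 tested genes of surface colonocytes, the cells that express Lypd8, were read with it. None passed in any mutant by limma. At an unadjusted p under 0.05, 2 were higher and 6 lower in St6galnac6-/-, and 2 were higher and 2 lower in each of B3galt5D116A and B3gnt7-/-. Over all tested genes, 9.04%, 11.7% and 7.17% passed that unadjusted threshold in St6galnac6-/-, B3galt5D116A and B3gnt7-/-. The median log2 difference of the 29 genes was -0.28 in St6galnac6-/-, with 25 of 29 below 0, against 0.07 in B3galt5D116A and -0.05 in B3gnt7-/-. The B3galt5D116A median was -0.15 without its female library and 0.32 without its male library, and the B3gnt7-/- median turned above 0 (at most 0.07) without its female library or after quantile normalization. The median over all tested genes was 0.0030, 0.0012 and -0.0095 in the same order. Guca2a, which encodes guanylin, had 5067 (male) and 4481 (female) FPKM in wild-type, but 4175 and 3183 in St6galnac6-/- (log2 difference -0.39, SE 0.21, limma adjusted p = 0.637). Car1, a carbonic anhydrase and the most abundant of the list, spread from 5241 to 16569 FPKM across the libraries. Plac8 and Cyp2c55, the other two of the 4 most abundant, had log2 differences of -0.42 and -0.26 in St6galnac6-/- (SE 0.19 and 0.35).

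Ly6g6c, a GPI-anchored protein encoded in the class III region of the major histocompatibility complex, was at a higher level in all 6 mutant libraries. Wild-type held 1.36 (male) and 1.16 (female) FPKM. St6galnac6-/- held 3.025 and 3.61 FPKM, B3galt5D116A 5.06 and 4.11 FPKM, and B3gnt7-/- 3.40 and 2.89 FPKM. B3galt5D116A was the highest, while St6galnac6-/- and B3gnt7-/- overlapped. The log2 differences were 0.93, 1.30 and 0.87 (SE 0.17 each) for St6galnac6-/-, B3galt5D116A and B3gnt7-/-. Ly6g6c passed in 1 of 15 alternative fits in B3galt5D116A, the one without a term for sex, and in 0 of 15 in each of the other two. In that fit 16 of all 11537 tested genes passed, against 9 in the main fit. As Ly6g6c was chosen for coming near the threshold there, this adds no support.

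Ly6a showed no order of the genotypes. Wild-type held 154 (male) and 152 (female) FPKM, St6galnac6-/- 79.1 and 162, B3galt5D116A 126 and 121, and B3gnt7-/- 192 and 98.0. The lowest and the highest library were both mutant males. The log2 differences were -0.43, -0.30 and -0.16 (moderated SE 0.39 each, residual SD 0.57). The sign turned in St6galnac6-/- without its male library (0.25) and in B3gnt7-/- without its female library (0.48). Lymphocytes also express Ly6a. The 9 T and intraepithelial lymphocyte markers were summed in each library. In FPKM, the sums were 11.8 (male) and 7.48 (female) for wild-type and 11.2 and 8.39 for St6galnac6-/-. They were 5.46 and 15.2 for B3galt5D116A, and 15.2 and 16.4 for B3gnt7-/-. The part of these cells in the Ly6a values was not tested. Because Ly6a, Ly6c1 and other members of this cluster are close paralogs, the way shared reads were split between them can also move these values.

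Ly6e, a broadly expressed interferon-induced protein that restricts the entry of some viruses, lay at a level like that of Ly6a. Wild-type held 140.1 and 133 FPKM, St6galnac6-/- 148 and 190.2 FPKM, B3galt5D116A 143 and 125 FPKM, and B3gnt7-/- 196 and 139.9 FPKM. The log2 differences were 0.29, -0.03 and 0.27 (SE 0.20 each). Only the St6galnac6-/- libraries did not overlap wild-type, and there the difference was -0.01 without the female library.

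Counting libraries that did not overlap wild-type, 5 of the 6 tested members lay wholly to one side in St6galnac6-/- (Psca and Lypd8 lower, Ly6d, Ly6e and Ly6g6c higher), where 47.8% of all tested genes did. In B3galt5D116A 5 of 6 did so (Psca, Ly6a, Ly6d and Lypd8 lower, Ly6g6c higher), against 51.2% of all genes. In B3gnt7-/- 4 of 6 did so (Psca, Ly6d and Lypd8 lower, Ly6g6c higher), against 34.7% of all genes. Psca and Lypd8 were lower and Ly6g6c was higher than wild-type in all 3 mutants, and Ly6d was the member whose side differed between mutants. The share of all genes with every mutant library on the same side of wild-type was not counted. Such a pattern is therefore a description wherever this report gives it, and all 3 comparisons use the same wild-type libraries.

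**Figure D2:**
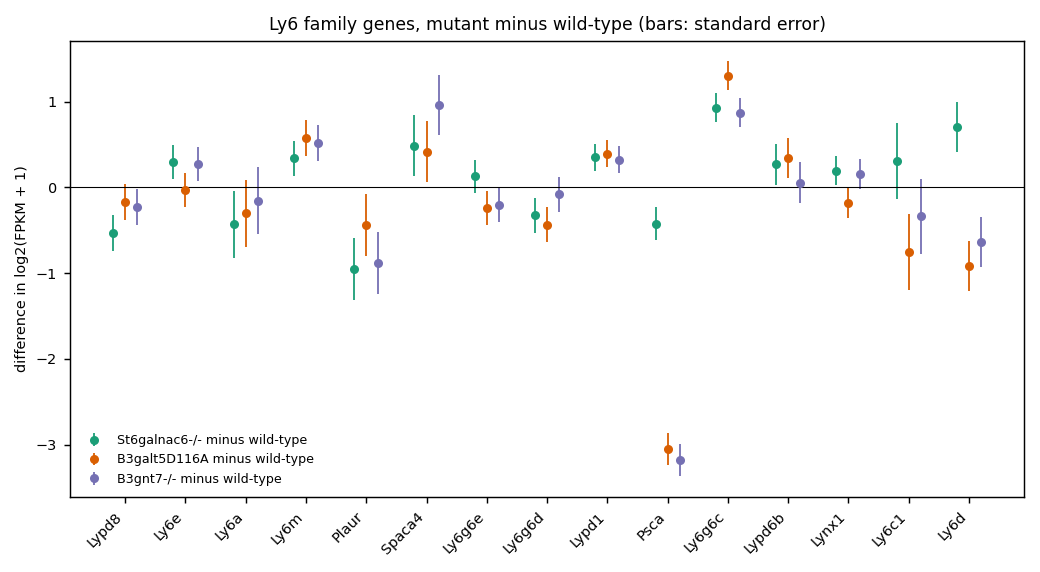
Difference from wild-type in log2(FPKM + 1), with standard errors from the fit of all libraries as bars, for the 15 Ly6 family genes that averaged 1 FPKM or more, in order of mean level. Psca stands apart at -3.05 and -3.18 in B3galt5D116A and B3gnt7-/-, and Ly6g6c lies at 0.87 to 1.30 in all 3 mutants.

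Males and females were compared over all 4 genotypes, a contrast that was not used to choose the members. None of the 6 tested members passed by sex in limma at an adjusted p under 0.05, where 0.0520% of all tested genes passed, or at an unadjusted one, where 1.66% did. Psca had the largest estimate, 0.23 higher in males (SE 0.13, limma adjusted p = 0.9998), and was higher in the male library of 3 of 4 genotypes. Lypd8 was higher in the male library of 4 of 4 genotypes, by 0.08 on average (SE 0.15, limma adjusted p = 0.9998). With 1 library per sex and genotype, an interaction of sex and genotype could not be fitted.

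The remaining Ly6 family was read against these members. Of 38 other family genes sought, 33 were in the tables and 9 averaged at least 1 FPKM. With the members, 40 family genes were present, of which 15 averaged at least 1 FPKM, 4 at least 100 FPKM, and 10 were listed at 0 in all libraries. Lypd8 alone made up 91.0% to 94.9% of the summed family FPKM. None of the 9 other genes passed in any mutant by limma. At an unadjusted p under 0.05, Plaur was lower in St6galnac6-/-, Ly6m and Lypd1 were higher in B3galt5D116A, and in B3gnt7-/- Ly6m and Spaca4 were higher and Plaur lower. The share of all tested genes past that threshold was 9.04%, 11.7% and 7.17% in this order. The median log2 difference of the 9 genes was 0.27, -0.19 and 0.05. It was 0.07 in B3galt5D116A with no filter on low genes and -0.10 in B3gnt7-/- without the wild-type male library.

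Ly6m, listed in the tables under the older symbol 2010109I03Rik, was the most abundant of them. Its male and female FPKM were 75.2 and 77.1 for wild-type, 88.3 and 106 for St6galnac6-/-, 121 and 108 for B3galt5D116A, and 84.8 and 141 for B3gnt7-/-. All 6 mutant libraries lay above wild-type, with log2 differences of 0.34, 0.58 and 0.52 (SE 0.21 each) and limma adjusted p of 0.673, 0.391 and 0.67. Of all tested genes, 47.8%, 51.2% and 34.7% did not overlap wild-type in each mutant taken alone. Plaur, the urokinase receptor, had male and female FPKM of 29.3 and 29.5 for wild-type, 14.7 and 14.8 for St6galnac6-/-, 17.9 and 25.5 for B3galt5D116A, and 24.6 and 9.69 for B3gnt7-/-. Every mutant library was below wild-type, but none of its differences passed (limma adjusted p = 0.518, 0.624 and 0.692). Spaca4, a sperm surface protein gene also read here in colon, had 13.8 and 12.2 FPKM in the wild-type libraries and reached 38.3 FPKM in the B3gnt7-/- female library. That library also had the highest fibroblast and muscle marker sum, 33.1 FPKM against 7.002 to 9.921 FPKM in the other 7, with Dcn at 18.9 FPKM, and its part in the Plaur and Spaca4 values was not tested. Ly6g6e, a neighbour of Ly6g6c on chromosome 17, was at 10.96 to 19.58 FPKM with log2 differences of 0.13, -0.24 and -0.21 (SE 0.20 each). It overlaps Ly6g6d on the opposite strand, so these 2 genes may share reads.

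**Figure D3:**
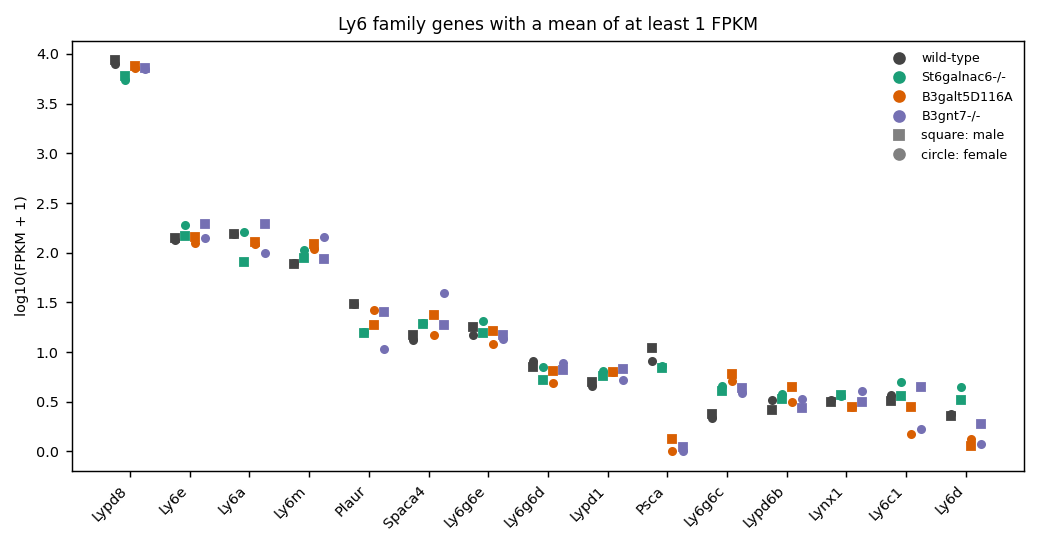
Level in each library as log10(FPKM + 1) for the 15 Ly6 family genes that averaged 1 FPKM or more, coloured by genotype, with squares for male and circles for female libraries. Lypd8 lies above all other family genes in every library, Ly6e, Ly6a and Ly6m follow near 100 FPKM, and Psca is the gene with the widest gap between genotypes.

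Most of the family lies in clusters. On mm10, 17 of the 40 family genes are on chromosome 15, including Psca (74714839 to 74717069, plus strand), Slurp1 (74724318 to 74728034, minus), Ly6d (74762056 to 74763620, minus), Ly6e (74955051 to 74959905, plus) and Ly6a (74994877 to 74998031, minus), which together span 283.2 kb. Ly6g6c is on chromosome 17 (35065388 to 35070050, plus) and Lypd8 on chromosome 11 (58379043 to 58390728, plus). Of 27 other genes within 1 Mb of Psca, 9 were tested, and none passed in any mutant by limma. At an unadjusted p under 0.05, 1 was higher and 1 lower in St6galnac6-/-, and 1 was higher and 2 lower in each of B3galt5D116A and B3gnt7-/-, beside 9.04%, 11.7% and 7.17% of all genes. The nearest tested neighbour, Them6, begins 4.1 kb after Psca. Its male and female FPKM were 3.05 and 2.59 for wild-type, 2.64 and 2.13 for St6galnac6-/-, 1.27 and 0.829 for B3galt5D116A, and 1.66 and 0.955 for B3gnt7-/-. The 4 libraries with almost no Psca were thus also the 4 lowest for Them6, with log2 differences of -0.90 and -0.74 (SE 0.17 each, limma adjusted p = 0.233 and 0.394) against -0.18 in St6galnac6-/- (adjusted p = 0.812). Arc, the tested neighbour 42.3 kb before Psca and a gene of synaptic and immediate early responses, held 87.6 and 68.1 FPKM in the wild-type libraries and 48.6 to 56.3 FPKM in all 6 mutant libraries (limma adjusted p = 0.342, 0.354 and 0.582). Between Arc and Psca lie Jrk and 4933427E11Rik, which averaged below 1 FPKM and were not tested. Jrk held 0.988 and 0.700 FPKM in wild-type, 0.829 and 0.984 in St6galnac6-/-, 0.467 and 0.554 in B3galt5D116A, and 0.5385 and 0.708 in B3gnt7-/-. 4933427E11Rik held 0.168 to 0.300 FPKM in wild-type and St6galnac6-/-, 0 in B3galt5D116A, and 0 and 0.0867 in B3gnt7-/-. Ly6k, a family gene 82.0 kb from Psca, was also too low to be tested. It held 0.362 and 0.687 FPKM in wild-type, 0.446 and 0.798 in St6galnac6-/-, 0 and 0 in B3galt5D116A, and 0.129 and 0.461 in B3gnt7-/-. These untested genes are named among 18 neighbours that averaged below 1 FPKM. Of the 9 tested neighbours, 5 lay above 0 and 4 below it in B3galt5D116A. There the log2 difference was -0.19 for Lynx1, 33.0 kb away, 0.58 for Ly6m, 162.1 kb away, and -0.75 for Ly6c1, 329.2 kb away and beyond Ly6a (SE 0.17, 0.21 and 0.44).

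**Figure D4:**
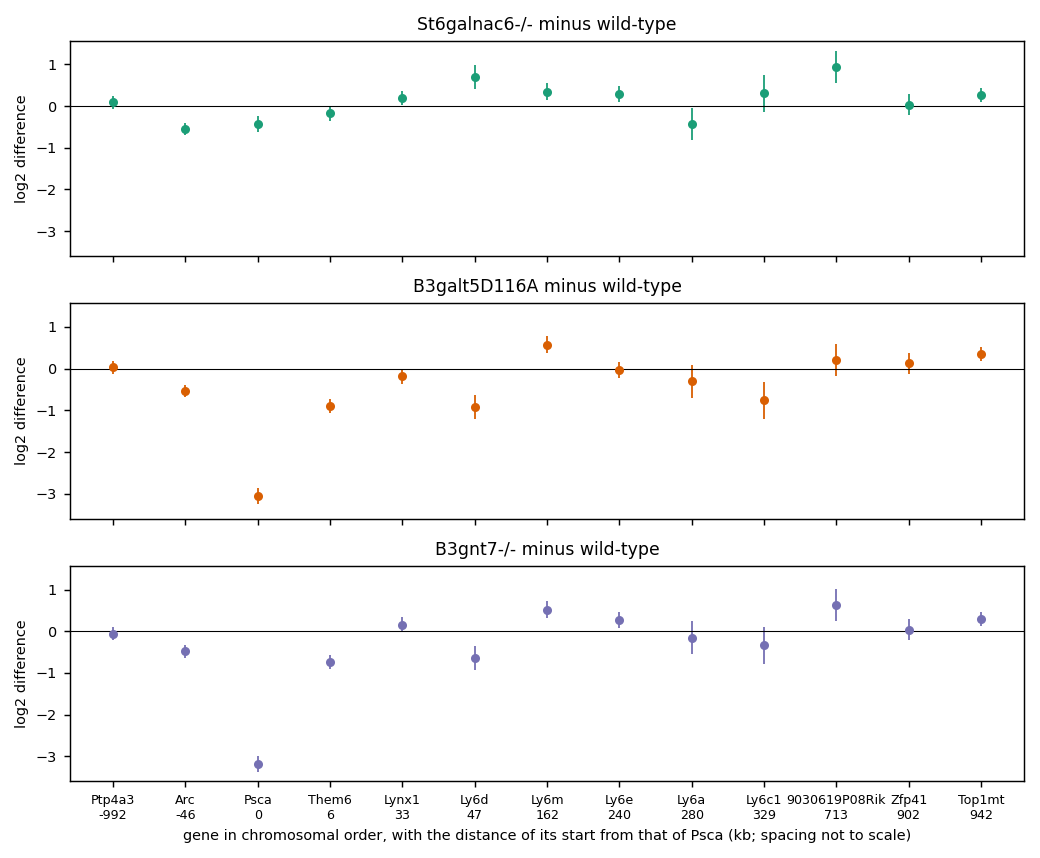
Difference from wild-type in log2(FPKM + 1), with standard errors as bars, of the tested genes within 1 Mb of Psca in chromosomal order, labelled by the distance of their starts from that of Psca in kb and evenly spaced rather than to scale. In B3galt5D116A and B3gnt7-/- Psca lies near -3, Them6 and Ly6d lie between -0.64 and -0.92, Ly6m lies at 0.58 and 0.52, and Ly6c1 at -0.75 and -0.34.

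Of 988 tested genes whose log2 level ranged by at least 1 over the 8 libraries, those most like Psca by Pearson's r were Klk1b22 (0.99), Chst8 (0.97), Zfp939 (0.96), Them6 (0.93) and 2010106E10Rik (0.91). These r describe 8 libraries that differ in genotype and may differ in depth, and carry no test. Klk1b22, a kallikrein gene of a family of near-identical copies, held 16.8 to 25.3 FPKM in the wild-type and St6galnac6-/- libraries, and was listed at 0 in all 4 libraries of B3galt5D116A and B3gnt7-/-. Chst8, a carbohydrate sulfotransferase, was at 1.59 to 3.04 FPKM in the first 4 libraries and at 0.259 to 0.336 FPKM in the other 4. Zfp939, a zinc finger gene, was at 8.01 to 10.3 FPKM against 3.04 to 4.22 FPKM. These 3 genes lie on chromosome 7, with Chst8 from 34674468 to 34812711, Zfp939 from 39449518 to 39477413 and Klk1b22 from 44112673 to 44116922 on mm10, whereas Psca and Them6 lie on chromosome 15 and 2010106E10Rik on X. All of them separated the same 4 libraries from the other 4.

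The genes most like Ly6g6c were Cd177 (0.96), Trf (0.96), Insl5 (0.95), Ttr (0.94) and Clca3b (0.93). Cd177, itself a GPI-anchored protein best known from neutrophils, held 42.2 and 43.0 FPKM in the wild-type libraries and 64.4 to 89.1 FPKM in the mutants. Insl5, a hormone of colonic enteroendocrine cells, had male and female FPKM of 11.04 and 13.0 for wild-type, 28.4 and 26.0 for St6galnac6-/-, 51.8 and 46.2 for B3galt5D116A, and 26.2 and 29.2 for B3gnt7-/-. As with Ly6g6c, wild-type was lowest and B3galt5D116A highest.

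Among the same 988 genes, those most like Lypd8 were Selenbp1 (0.98), Hao2 (0.95), Prdx6 (0.93), Sycn (0.91) and Tnni1 (0.90). Lypd8 itself, at 5513 to 8637 FPKM, ranged by less than 1 on the log2 scale, so genes that moved as little were left out. Picking by r also favours genes with the same order of genotypes. Selenbp1, a selenium-binding protein of mature colonocytes, had male and female FPKM of 1388 and 1308 for wild-type, 775 and 621 for St6galnac6-/-, 1039 and 1054 for B3galt5D116A, and 968 and 898 for B3gnt7-/-, the same order of genotypes as Lypd8. Among the members themselves, Psca was most like Ly6d (r = 0.80) and had its lowest r with Ly6g6c (-0.67).

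**Figure D5:**
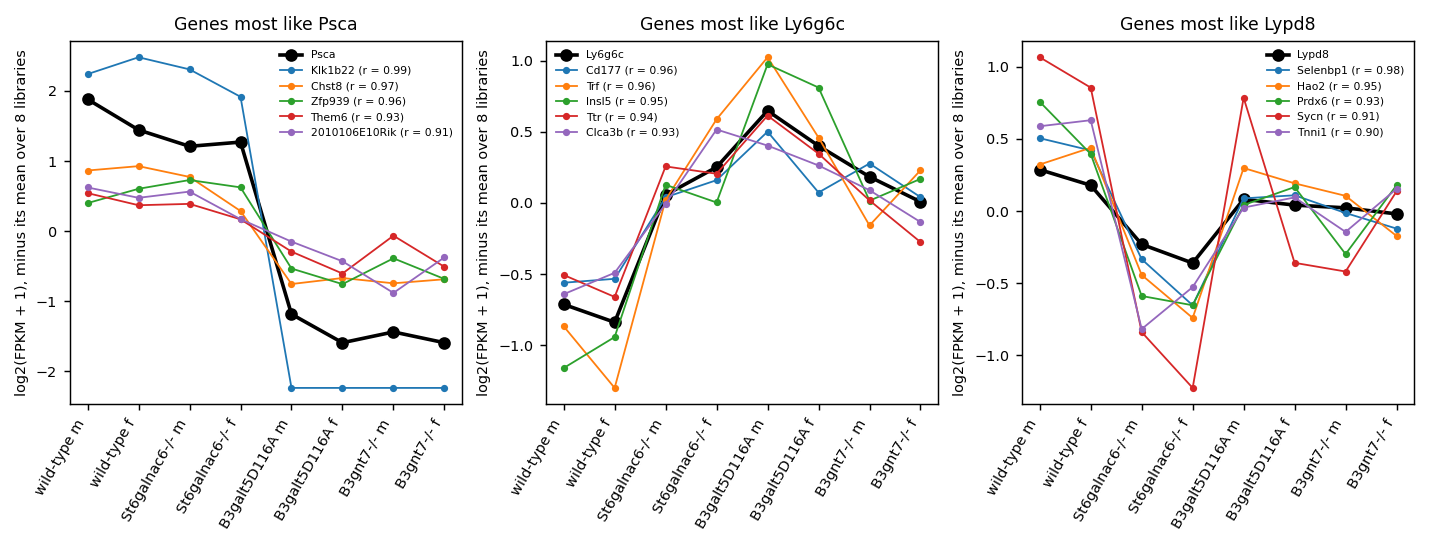
Level in each of the 8 libraries, as log2(FPKM + 1) minus the gene's mean, of Psca, Ly6g6c and Lypd8 (black) and of the 5 genes most like each, with Pearson's r in the legend. The genes beside Psca step down between the St6galnac6-/- and B3galt5D116A libraries, those beside Ly6g6c are lowest in wild-type, and those beside Lypd8 are lowest in St6galnac6-/-.

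Ly6a and Ly6e are interferon-induced, and 46 of 60 interferon-induced genes were tested. By limma 1 rose in St6galnac6-/- and none passed in the other two. At an unadjusted p under 0.05, 4 were higher and 3 lower in St6galnac6-/-, 7 higher and 1 lower in B3galt5D116A, and 20 higher and 0 lower in B3gnt7-/-, beside 9.04%, 11.7% and 7.17% of all tested genes in either direction. The median log2 difference was 0.17, 0.13 and 0.40, with 32, 29 and 42 of 46 above 0. The B3gnt7-/- median was 0.21 without its male library and 0.48 without its female library, and the St6galnac6-/- median 0.30 and 0.05 in the same order. In the B3gnt7-/- male and female libraries the lymphocyte markers summed to 15.2 and 16.4 FPKM, against 5.46 to 15.2 in the other 6, and the 8 myeloid markers to 5.84 and 8.95 FPKM, against 3.17 to 6.05. S100a8 was at 0 in all libraries, and the part of these cells in the interferon-induced genes was not tested. The gene that rose was Ifitm3, which blocks viral entry: it held 11.3 (male) and 12.3 (female) FPKM in wild-type, but 23.8 and 25.5 in St6galnac6-/- (log2 difference 1.001, SE 0.11, limma adjusted p = 0.0435). The B3galt5D116A libraries held 20.7 and 21.7 FPKM and the B3gnt7-/- libraries 17.6 and 20.8 FPKM (limma adjusted p = 0.0884 and 0.249). The count fell to 0 without either wild-type library, either St6galnac6-/- library or either B3galt5D116A library. Ifi27l2b, Lgals3bp, Irf7 and Ifi27, the 4 most abundant of the list, had log2 differences of 0.31, 0.42, 0.08 and 0.03 in B3gnt7-/- (limma adjusted p = 0.73, 0.638, 0.946 and 0.97). The Ly6a difference in B3gnt7-/- was -0.16 and that of Ly6e was 0.27.

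The fetal-like repair genes, with which Ly6a is expressed in injured gut, gave 16 tested members and no calls by limma. At an unadjusted p under 0.05, 2 were higher and 2 lower in St6galnac6-/-, 3 and 3 in B3galt5D116A, and 4 and 4 in B3gnt7-/-, beside 9.04%, 11.7% and 7.17% of all tested genes. The medians were -0.13, -0.10 and -0.09, the last of which was 0.10 without the B3gnt7-/- female library. Areg, the growth factor amphiregulin, held 529.5 and 316 FPKM in the wild-type libraries and 183 to 273 FPKM in the mutants (limma adjusted p = 0.362, 0.386 and 0.632). S100a6, Ccn1 (listed as Cyr61) and Anxa1, the others of the 4 most abundant, had log2 differences between -0.11 and -0.70. The genes that build and attach GPI anchors, on which most Ly6 proteins depend, were read last. Of 28 tested, none passed by limma, and 1, 2 and 0 did so at an unadjusted p under 0.05, beside 9.04%, 11.7% and 7.17% of all genes. The medians were 0.06, 0.05 and 0.01, the last of which was -0.03 without the B3gnt7-/- male library. Pigt, the most abundant of them and a subunit of the transamidase that attaches the anchor, was at 49.97 to 61.9 FPKM. Dpm3 and Dpm2, of the enzyme that makes the mannose donor, were at 39.9 to 61.1 and 39.5 to 52.4 FPKM, and Pgap2, which remodels the anchor, at 35.6 to 50.9 FPKM.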

How the data were processed

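Per the labels' protocols, total RNA (miRNeasy Micro) went into stranded TruSeq mRNA libraries. Cuffdiff 2.2.1, TopHat2 2.1.1, SAMtools 0.1.18, Bowtie2 2.2.8 and the build mm10 are named in the submitters' processing notes. The authors deposited 1 table of FPKM per library, per the file headers, and their scaling between libraries is not given in the sources used here.

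The 11537 genes averaging 1 FPKM or more in the 8 libraries entered the test on log2(FPKM + 1), with a pseudocount of 1, with limma 3.58.1 in R 4.3.3 (eBayes with trend). Genotype and sex were additive terms in 1 fit, with 3 residual and 4.02 prior degrees of freedom. Tests were two-sided, with Benjamini-Hochberg adjustment over all genes of a comparison and a threshold of 0.05. Of the members, 6 of 7 passed the filter.

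The members and lists were chosen with earlier results of these data known. Members are given in every library. Of other lists, genes that passed and the 4 most abundant tested genes are named. Of genes near Psca, the nearest tested one on each side is named and, after their values were seen, Lynx1, Ly6m, Ly6c1, Ly6k, Jrk and 4933427E11Rik. Beside Psca, Ly6g6c and Lypd8, the 5 genes of highest r are named. Of the marker lists the most abundant are named, and the genes past an unadjusted p are named for the Ly6 family only, which was decided after seeing their values. B and plasma cell markers summed to 0.212 to 0.922, endothelial to 1.42 to 2.08 and myeloid to 3.17 to 8.95 FPKM. Older symbols were matched through RefSeq, positions come from GENCODE M21, and promoters from RefSeq. Alternatives were other pseudocounts, filters, scalings and models, and leaving out each library.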

Additional observations from a re-analysis of the deposited data

Results flagged for a closer look

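Ly6a and Ly6e were singled out because a mutant's male and female libraries lay on opposite sides of wild-type of matched sex. For Ly6a in St6galnac6-/- the male log2 difference was -0.95 and the female one 0.0909. For Ly6a in B3gnt7-/- the male difference was 0.31 and the female one -0.63. For Ly6e in B3galt5D116A they were 0.0325 and -0.0931. The difference between the sexes was not tested, since each rests on 1 library. Opposite signs were common among all tested genes, at 40.2% in St6galnac6-/-, 37.1% in B3galt5D116A and 45.6% in B3gnt7-/-.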

How the results depend on the processing

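With pseudocounts of 0.1 and 5, the Psca difference was -5.39 and -1.40 in B3galt5D116A and -5.89 and -1.42 in B3gnt7-/-, and it passed under each. In St6galnac6-/- it ran from -0.62 to -0.23 when single libraries were left out. In 1 of the 16 alternatives, a filter at a mean of at least 5 FPKM, Psca and Ly6g6c were removed and not tested, which leaves 15. Psca passed in 12 of 15 alternatives in B3galt5D116A and 13 of 15 in B3gnt7-/-, and in 0 of 15 in St6galnac6-/-. As Psca was chosen for having passed, these counts describe the processing and add no support. The 1 interferon-induced gene called in St6galnac6-/- became 0 with a pseudocount of 5, no filter or quantile normalization, and 0 to 1 with a library left out. In a fit of only the genotypes compared, St6galnac6-/- gave 1 other Ly6 family gene, 2 surface colonocyte genes and 1 fetal-like repair gene. In that fit 49 of all 11537 tested genes passed, against 10 in the main fit, so the rise was not particular to these lists. With single libraries left out, counts ran from 0 to 2 for surface colonocyte genes in St6galnac6-/-, and in B3gnt7-/- from 0 to 1 for other family genes and 0 to 3 for fetal-like repair genes. The cause was not tested. Of 279 alternative values of members by genotype, 4 changed sign, for Ly6a and Ly6e when 1 library was left out, and of 81 by sex, 19 did. Of 288 alternative medians of lists, 19 changed sign. Depth could not be read in counts, so no limit of detection is given for Psca, Ly6d or Slurp1. The labels give no replicate numbers. Sex, which pairs the libraries across genotypes, was a term of the fit. Without it Ly6g6c passed in B3galt5D116A, where 16 of all 11537 tested genes then passed.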
